A study of Mus musculus with 40 samples.

Results

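The comparison described here is the acute deletion of Zmiz1 in double-negative 3 (DN3) thymocytes after tamoxifen, in 8 of the series' 40 samples. The deleted group, DeltaTamCre, came from Rosa26CreERT2 Zmiz1f/f mice and the control group, TamCre, from Rosa26CreERT2 mice, 4 mice and 4 libraries in each, all on a C57BL/6 background. Members were chosen by title and table, and all genes of that table were compared. Both groups carried the tamoxifen-activated Cre and both received 0.2 mg/g tamoxifen into the peritoneum, so the groups differ in the floxed Zmiz1 alleles and share the Cre and the agent. Cells were sorted 43 to 44 hours after the injection. Rosa26 is active in most cell types, so the deletion was not limited to thymocytes. The labels give neither the age nor the sex of the mice, and they do not name the floxed exons. The RNA, 100 ng per library, was made into libraries by an mRNA kit with 12 cycles of PCR.

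DN3 is the stage at which a thymocyte has shut off other fates, rearranges its T-cell receptor beta gene and tests the product as part of the pre-T-cell receptor. Survival and growth at this stage depend on Notch1, whose cleaved intracellular part joins the DNA-binding protein Rbpj and a Mastermind-like co-activator on target genes such as Hes1, Dtx1, Nrarp, Ptcra and Myc. Zmiz1 is a PIAS-like protein that binds Notch1 and acts as a co-activator at a subset of these targets, Myc among them. Myc in turn drives genes of ribosome assembly, nucleotide synthesis and metabolism through E-box sequences.

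The labels give the sorted DN3 cells a CD44-positive, CD25-negative phenotype, whereas DN3 cells are classically CD44-negative and CD25-positive, and the RNA was read against the markers. Il2ra, which encodes CD25, ran from 2434 to 3380.2 CPM (the count scaled to a common library size) over the 8 libraries, and Cd44 from 3.31 to 5.44. Ptcra stood between 343 and 404 CPM, Rag1 between 523 and 751, and Bcl11b, a factor of T-lineage commitment, between 562 and 654. These levels are those of CD25-positive, CD44-low cells. Cd8a and Cd4, which mark later thymocytes, were low but uneven. Cd8a stood at 7.05, 26.6, 8.44 and 8.02 CPM in TamCre libraries 1 to 4 and at 45, 9.08, 16.5 and 25.5 in DeltaTamCre libraries 1 to 4. TamCre 2 and DeltaTamCre 1 were the highest of their groups, and the groups overlapped.

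Library depth ran from 65053364 to 91659598 counts in TamCre and from 48127197 to 66487249 in DeltaTamCre. The first principal component, 31.6% of the variance, set TamCre 1 apart at -53.5 against -13.6 to 28.9 elsewhere. That library had the highest levels of immediate early genes, with Klf4 at 13.8 CPM against 0.177 to 0.918 in the other 7 libraries, and the highest share of counts in the ribosomal precursor Rn45s, at 1.15% against 0.356 to 0.846%. The nuclear RNA Malat1 made up 0.031 ± 0.00678% of the counts of TamCre and 0.0457 ± 0.0169% in DeltaTamCre (SD, n = 4; exact two-sided permutation test, p = 0.114, adjusted p = 0.19 over 5 measures). None of the 5 measures of depth and composition passed that test after adjustment. The smallest p that the exact two-sided permutation test allows for 4 against 4 libraries is 0.0286. A single measure therefore cannot pass the adjustment even without overlap, and the result does not show that the groups were alike. Depth was lower in DeltaTamCre, with means of 58948900 ± 7733960 against 82270600 ± 11983400 counts (SD, n = 4). Only DeltaTamCre 3 was deeper than any control, namely TamCre 4.

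**Figure D1:**
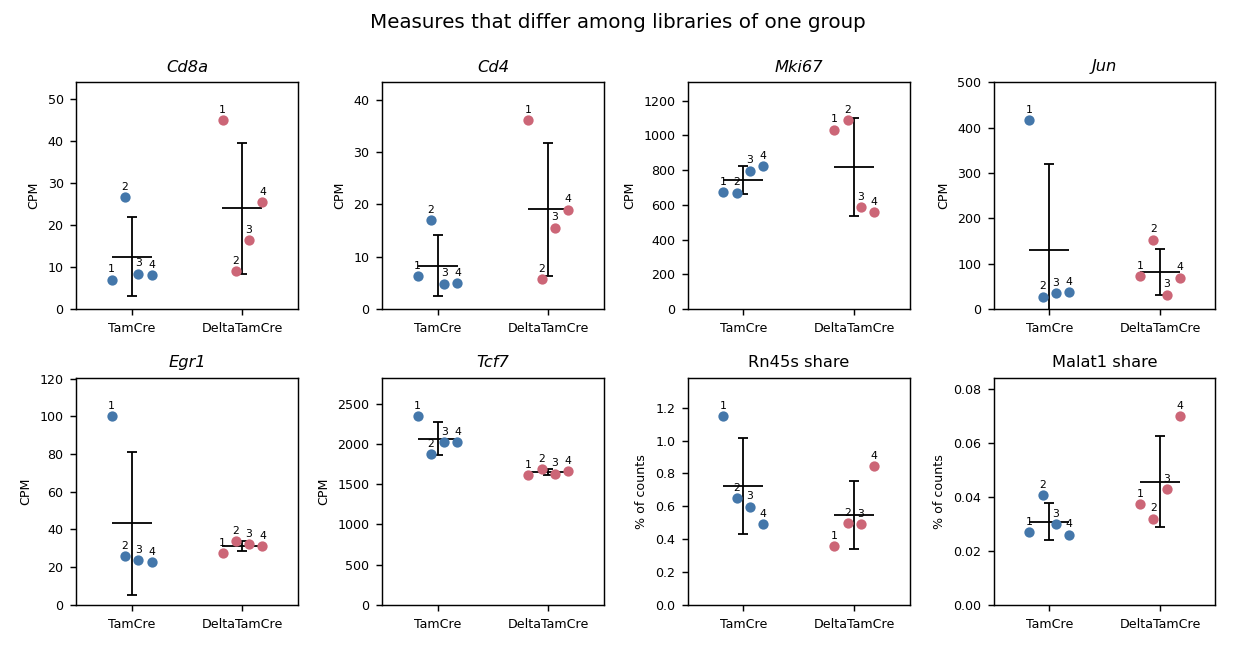
Levels of Cd8a, Cd4, Mki67, Jun, Egr1 and Tcf7 in CPM, and the shares of counts in Rn45s and Malat1 in percent, for each TamCre and DeltaTamCre library (points, numbered by replicate) with the group mean and SD (black). DeltaTamCre 1 has the highest Cd8a level, at 45 CPM, and TamCre 1 stands apart in the immediate early genes Jun and Egr1, while for Tcf7 every DeltaTamCre library lies below every TamCre library.

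Zmiz1 (chromosome 14, 25459185 to 25666743, plus strand, GRCm38, protein coding) checks the labels. Its level was 354, 322, 301 and 312 CPM in the TamCre libraries and 201, 243, 184 and 188 in the DeltaTamCre libraries. Every deleted library lay below every control library, and DeltaTamCre 2 kept the most Zmiz1 RNA. The mean fell from 322 ± 22.6 to 204 ± 27 CPM (SD, n = 4), a 1.58-fold lower level (log2 fold change -0.66, SE 0.0971, edgeR quasi-likelihood test with Benjamini-Hochberg adjustment, adjusted p = 0.0368). The exact two-sided permutation test gave p = 0.0286, the smallest that 4 against 4 libraries allow. The count covers the whole gene, and RNA from exons outside the deleted part still counts, so the level does not give the share of cells that lost the gene.

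Over 13298 genes tested, edgeR called 11, or 0.0827%, of which 7 were higher (0.0526%) and 4 lower (0.0301%) in DeltaTamCre. DESeq2 called far more, 222 higher (1.9%) and 197 lower (1.69%) of 11654 genes, 3.6% together, and all 11 edgeR calls were among them. At an unadjusted edgeR p under 0.05 there were 970 genes higher (7.29%) and 1099 lower (8.26%). Most differences were small. The median log2 fold change of all genes was 0.01 and the median size, regardless of sign, was 0.14. Changes of more than 1 on the log2 scale were seen in 241 genes, 41 of them with a mean of at least 1 CPM. In 583 genes (4.38%) every DeltaTamCre library lay above every TamCre library, and in 772 (5.81%) every one lay below. The 11 calls were sensitive to single libraries. Without TamCre 3 or TamCre 4 edgeR called 0 genes, without DeltaTamCre 4 it called 1, without TamCre 1 it called 2, without DeltaTamCre 3, DeltaTamCre 2 and TamCre 2 it called 4, 5 and 6, and without DeltaTamCre 1 it called 8. Evl stayed called in 6 of these 8 sets of libraries, Il31ra in 5 and Jakmip1 in 4, Pgam2 in 2, Zmiz1, Ggt5, Cd53, Gzma, Itgb3 and Qsox2 in 1 each, and Myl4 in 0. The directions of the 11 genes were the same in all 19 settings run.

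**Figure D2:**
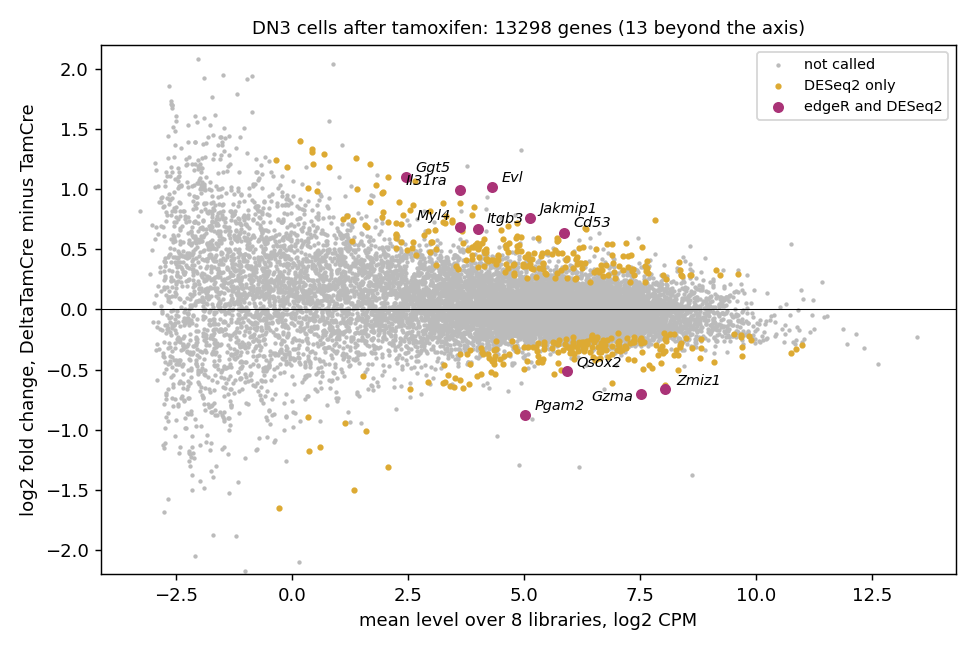
Log2 fold change (DeltaTamCre minus TamCre) against mean level in log2 CPM for the 13298 genes tested, 13 of them beyond the axis, with the 11 genes called by edgeR and DESeq2 named and the genes called by DESeq2 alone in yellow. The 11 named genes lie between log2 fold changes of -0.88 and 1.10, and most other genes lie close to 0.

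None of the 7 genes that rose is in any of the 35 gene lists, the Notch target list included. Evl, an Ena/VASP protein that promotes actin filament growth (chromosome 12, 108554720 to 108688516, plus strand), stood at 14, 13.9, 12.4 and 12.3 CPM in TamCre and at 31.2, 26.4, 25.6 and 23.2 in DeltaTamCre. The lowest deleted library was above the highest control library by a wide gap. Evl rose 2.02-fold (log2 fold change 1.02, SE 0.109, edgeR adjusted p = 0.00827).

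Il31ra, a receptor chain for interleukin 31 (chromosome 13, 112519898 to 112594360, minus strand), stood at 8.3, 8.79, 8.05 and 7.86 CPM in TamCre and at 14.9, 15.3, 17 and 18.4 in DeltaTamCre. All deleted libraries were above all controls, and the controls differed little from each other. The rise was 1.98-fold (log2 fold change 0.99, SE 0.108, edgeR adjusted p = 0.00827). Jakmip1, a Janus kinase and microtubule interacting protein (chromosome 5), stood at 24.6, 28.7, 25.6 and 25.3 CPM in TamCre and at 40.1, 42.9, 49.96 and 43 in DeltaTamCre, again without overlap. It rose 1.69-fold (0.76, SE 0.0898, edgeR adjusted p = 0.0131).

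Ggt5, a gamma-glutamyl transferase that cleaves leukotriene C4 (chromosome 10, 75589340 to 75617200, plus strand), had the largest rise of the 7 and the lowest level. It stood at 3.34, 3.77, 3.2 and 3.67 CPM in TamCre and at 7.06, 5.88, 9.16 and 7.81 in DeltaTamCre. The rise was 2.14-fold (log2 fold change 1.10, SE 0.162, edgeR adjusted p = 0.0368). Cd53, a tetraspanin of leukocytes (chromosome 3), stood at 43.1, 44.7, 46 and 49 CPM in TamCre and at 57.4, 72.1, 81.4 and 73.1 in DeltaTamCre. The rise, 1.55-fold (0.64, SE 0.0982, edgeR adjusted p = 0.0488), had its lowest deleted library in DeltaTamCre 1, still above all controls. Itgb3, the integrin beta 3 chain (chromosome 11, 104608000 to 104670476, plus strand), rose to 19.7 ± 2.04 CPM from 12.4 ± 0.745 (0.67, edgeR adjusted p = 0.0488). Myl4, an atrial and embryonic myosin light chain (chromosome 11, 104550663 to 104595753, plus strand), rose to 15.1 ± 0.964 CPM from 9.41 ± 0.545 (0.69, edgeR adjusted p = 0.0368). Myl4 and Itgb3 are neighbours on the same strand of chromosome 11.

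Beside Zmiz1, 3 genes fell. Gzma, a serine protease of cytotoxic granules (chromosome 13, 113093825 to 113100981, minus strand), stood at 228, 233, 241 and 214 CPM in TamCre and at 174, 123, 132 and 133 in DeltaTamCre. All deleted libraries were below all controls, with DeltaTamCre 1 the nearest to them. It fell 1.63-fold (log2 fold change -0.70, SE 0.104, edgeR adjusted p = 0.0368). Among other killer-cell genes, Klrd1 was at 0 in every library, and Ncr1 and Klrk1 reached at most 0.017 and 0.0535 CPM. Nkg7, a protein of cytotoxic granules, was abundant, at 78.6, 77.2, 69.1 and 80.8 CPM in TamCre and 76.6, 104, 94 and 108 in DeltaTamCre (log2 fold change 0.32, edgeR adjusted p = 0.19), opposite in sign to Gzma and with overlap. The summed level of 17 natural killer and innate lymphoid markers was 314 ± 8.89 CPM in TamCre and 246 ± 11.2 in DeltaTamCre, mostly Gzma itself (exact two-sided permutation test, p = 0.0286, adjusted p = 0.0952 over 10 marker lists). Of the 13 members tested, 8 lay above 0, with a median log2 fold change of 0.27. In bulk RNA, fewer cells of a type and less RNA per cell cannot be told apart.

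Pgam2, the muscle form of the glycolytic enzyme phosphoglycerate mutase (chromosome 11, 5801640 to 5803733, minus strand), had the largest fall of the 4. It stood at 44.1, 42.6, 40.7 and 41.3 CPM in TamCre and at 18, 21.2, 28.5 and 24 in DeltaTamCre, with no overlap. The fall was 1.84-fold (log2 fold change -0.88, SE 0.124, edgeR adjusted p = 0.0368). Qsox2, a sulfhydryl oxidase that forms disulfide bonds (chromosome 2, 26208637 to 26237525, minus strand), fell to 50.3 ± 3.33 CPM from 71.9 ± 4.75 (-0.52, SE 0.0741, edgeR adjusted p = 0.0368), with 46.3 to 54.4 CPM in the deleted and 66 to 77.1 in the control libraries.

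**Figure D3:**
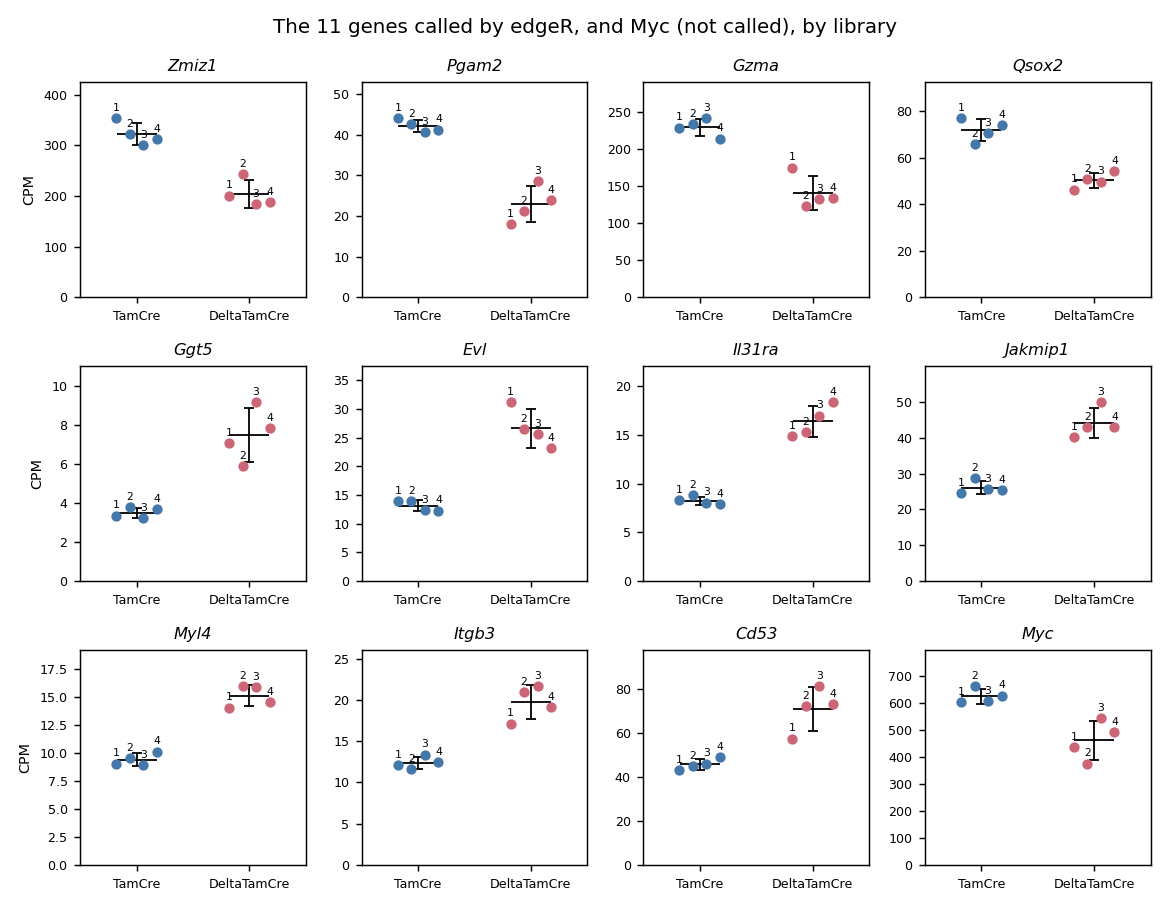
CPM of the 11 genes called by edgeR, and of Myc, in each TamCre (blue) and DeltaTamCre (red) library, numbered by replicate, with the group mean and SD in black. The groups do not overlap in any of the 12 panels, and Myc, with an edgeR adjusted p of 0.128, was not called by edgeR.

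Promoter sequences are shown for some of the called genes, to let the letters be read beside the values, and for a Myc target. They are 300 bases each, from 250 before to 50 after a RefSeq gene start on GRCm38.p6, read 5′ to 3′ on the gene's strand. Capitals mark TGGGAA, the core that Rbpj binds, or its reverse complement TTCCCA, and the E-box CACGTG, which reads the same on both strands and which Myc can bind with Max. Both strands were searched, and no match of one motif overlaps a match of the other in the promoters shown. The first is Qsox2, which fell. The next are the upstream one of the start sites given for Jakmip1 and the downstream one of those given for Evl, which both rose. The other start site given for each of these genes holds neither motif and is not shown. The last is Cdk4, a cell-cycle kinase of the Myc target list, which holds 4 E-boxes. Its level is not reported here. Among Myc targets lower without overlap, Pus1, Nop2, Prmt3 and Phb also hold the E-box, with 1 in each promoter, so Cdk4 is the extreme case.
Qsox2 (chr2:26237350-26237649, minus strand): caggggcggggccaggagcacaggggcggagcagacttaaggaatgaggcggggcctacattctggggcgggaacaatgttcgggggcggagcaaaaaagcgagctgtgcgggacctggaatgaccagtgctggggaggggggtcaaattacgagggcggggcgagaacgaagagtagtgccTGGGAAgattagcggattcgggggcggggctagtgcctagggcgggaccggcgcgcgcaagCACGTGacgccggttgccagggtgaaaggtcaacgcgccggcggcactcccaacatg
Jakmip1 (chr5:37050607-37050906, plus strand): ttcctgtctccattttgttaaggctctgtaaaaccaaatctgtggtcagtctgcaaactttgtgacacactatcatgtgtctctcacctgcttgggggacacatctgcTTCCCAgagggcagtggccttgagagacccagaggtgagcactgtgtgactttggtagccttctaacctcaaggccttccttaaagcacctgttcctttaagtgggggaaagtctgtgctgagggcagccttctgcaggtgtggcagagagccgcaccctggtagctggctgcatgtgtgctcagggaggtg
Evl (chr12:108605516-108605815, plus strand): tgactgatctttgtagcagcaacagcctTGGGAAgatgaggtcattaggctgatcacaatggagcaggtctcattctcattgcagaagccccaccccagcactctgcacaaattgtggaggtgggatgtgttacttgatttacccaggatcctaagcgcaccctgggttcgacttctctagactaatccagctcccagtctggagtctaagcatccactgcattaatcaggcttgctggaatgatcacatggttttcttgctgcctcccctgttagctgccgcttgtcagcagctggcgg
Cdk4 (chr10:127063285-127063584, plus strand): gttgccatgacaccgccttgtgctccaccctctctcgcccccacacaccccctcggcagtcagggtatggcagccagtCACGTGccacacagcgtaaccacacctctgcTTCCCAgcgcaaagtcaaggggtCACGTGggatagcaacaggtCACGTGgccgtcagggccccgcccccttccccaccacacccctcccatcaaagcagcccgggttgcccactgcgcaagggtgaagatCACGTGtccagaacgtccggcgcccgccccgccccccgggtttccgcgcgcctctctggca

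A promoter was given for 9 of the 11 called genes, and TGGGAA was in that of 5 (55.6%), namely Qsox2, Jakmip1, Evl, Pgam2 and Zmiz1, so the motif stood beside genes that rose and genes that fell. Of 9376 tested genes with a promoter given, 2502 (26.7%) held it. A gene is counted as holding a motif if the promoter of any of its start sites does. CACGTG was held by 15 of 52 Myc target genes with a promoter given (28.8%) and by 1092 of all 9376 genes (11.6%). Among Myc targets that were lower without overlap, 5 of the 16 with a promoter given held it (31.2%). These matches describe letters in a window and say nothing of binding in these cells.

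Notch receptors and most classical Notch targets differed little after this deletion. Of 18 genes of Notch receptors and their processing, edgeR and DESeq2 each called 0, none was free of overlap between the groups, and the median log2 fold change was -0.01. Notch1 was at 2912, 2326, 2203 and 2213 CPM in TamCre and at 1974, 2573, 2397 and 2387 in DeltaTamCre. The groups overlapped, with TamCre 1 the highest and DeltaTamCre 1 the lowest (-0.05, SE 0.115, edgeR adjusted p = 0.872). The sign of the Notch1 difference turned to 0.05 without TamCre 1 and to 0.02 without DeltaTamCre 1. Notch3 had a log2 fold change of -0.11 (SE 0.11, edgeR adjusted p = 0.68), and Lfng, a glycosyltransferase that modifies Notch, one of 0.20 (SE 0.119, 0.438).

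Among 17 Notch target genes the median log2 fold change was -0.07, 8 lay above 0 and 9 below, and edgeR called 0 (lowest adjusted p = 0.107). DESeq2 called Heyl higher (1.9% of all genes) and Myc and Tcf7 lower (1.69% of all genes). Hes1, a repressor and a direct Notch target, stood at 170, 142, 126 and 127 CPM in TamCre and at 117, 128, 154 and 131 in DeltaTamCre, overlapping throughout (-0.09, SE 0.111, edgeR adjusted p = 0.726, and 0.01 without TamCre 1). Dtx1, a ubiquitin ligase, stood at 576, 505, 445 and 467 CPM against 489, 650.2, 639 and 566, with the means 498 ± 57.4 and 586 ± 74.5 (0.23, SE 0.11, edgeR adjusted p = 0.336). Nrarp, a feedback inhibitor of Notch, had 0.22 (SE 0.169, edgeR adjusted p = 0.57), and Ptcra 0.07 (SE 0.0717, 0.683). The groups overlapped for all of these genes.

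Il2ra, Igf1r and Trib2, which are also reported targets of Notch in T cells, had log2 fold changes of 0.22 (SE 0.0975, edgeR adjusted p = 0.301), -0.10 (SE 0.0795, 0.585) and 0.24 (SE 0.13, 0.394). None passed, and their groups overlapped. Heyl, a hairy-related repressor, stood at 11.4, 12.4, 9.29 and 10.3 CPM in TamCre and at 18.8, 26.4, 17.7 and 15.2 in DeltaTamCre. Every deleted library was above every control (0.85, SE 0.165, edgeR adjusted p = 0.107, DESeq2 adjusted p = 0.000375). Heyl is thus a Notch target with a difference opposite to that of Myc.

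Myc (chromosome 15, 61985391 to 61990374, plus strand) stood at 603, 665, 607 and 628 CPM in TamCre and at 438, 376, 545 and 494 in DeltaTamCre. Every deleted library was below every control library, with DeltaTamCre 2 the lowest and DeltaTamCre 3 the nearest to the controls. The mean was 626 ± 28.2 against 463 ± 72.6 CPM, 1.35-fold lower (log2 fold change -0.43, SE 0.107). This difference did not pass edgeR (adjusted p = 0.128) and passed DESeq2 (adjusted p = 0.00997). In the 11 genes of the Myc and Max network Myc was the only one called by DESeq2 or free of overlap, and the median was 0.02. Of all genes, DESeq2 called 1.69% lower and 5.81% were lower without overlap.

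Myc targets lay lower in small and even steps. Of 58 listed genes, Myc included, 55 had a log2 fold change below 0, with a median of -0.23 beside 0.01 for all genes and a range from -0.46 to 0.07. EdgeR called 0 of them (0.0827% of all genes), DESeq2 called 7 lower (1.69% of all genes) and 0 higher, and in 19 every deleted library was below every control (5.81% of all genes). Srm, spermidine synthase, stood at 298, 213, 217 and 235 CPM in TamCre and at 153, 181, 167 and 197 in DeltaTamCre (-0.46, DESeq2 adjusted p = 0.0127). Nop16, a nucleolar protein, stood at 78.6, 66.7, 70.7 and 70.3 CPM against 53.2, 55.7, 58 and 56.4 (-0.36, edgeR adjusted p = 0.107, DESeq2 0.00279). TamCre 1 was the highest library for both genes, and the other controls were still above the deleted libraries.

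Further Myc targets called by DESeq2 alone were Dctpp1, a nucleotide pyrophosphatase (-0.40), Mrto4, a ribosome assembly factor (-0.34), Phb, a mitochondrial chaperone (-0.33), and Npm1, nucleophosmin (-0.29). Leaving out TamCre 1, the library that stands apart, gave a list median of -0.19 with 56 of 58 below 0. Leaving out TamCre 2 and DeltaTamCre 1, those of highest Cd8a, gave -0.24 with 56 below 0. With the double-positive marker level as a covariate the median was -0.18 with 51 below 0.

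Ribosome biogenesis genes, of which 3 of 29 are also in the Myc target list, had a median log2 fold change of -0.23, and all 29 lay below 0. EdgeR called 0, DESeq2 called 3 lower, namely Npm1, Fbl and Nop10 (1.69% of all genes), and 11 were lower without overlap (5.81% of all genes). Nop10, a small component of box H/ACA particles that modify ribosomal RNA, stood at 176, 181, 176 and 174 CPM in TamCre and at 155, 134, 139 and 159.9 in DeltaTamCre (-0.27, edgeR adjusted p = 0.145, DESeq2 0.0333). The controls were nearly equal and all lay above the deleted libraries. Fbl, fibrillarin, had -0.32 (edgeR adjusted p = 0.171, DESeq2 0.0456).

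Glycolysis genes had a median of -0.22, with 16 of 19 below 0. EdgeR called 0 and DESeq2 4 lower (1.69% of all genes), namely Pfkl (-0.32), Tpi1 (-0.38), Pgam1 (-0.34) and Ldha (-0.39). Only Pfkl among these 4, a phosphofructokinase with 114 to 141 CPM in deleted and 144 to 182 in control libraries, was free of overlap. It was also the only one of the 19, and 5.81% of all genes were lower without overlap. For Tpi1, Pgam1 and Ldha, DeltaTamCre 2 was above TamCre 2. Cholesterol synthesis genes had a median of -0.13 over 18 genes. Heat shock chaperones had -0.22 over 14 genes, and integrated stress and unfolded protein response genes -0.10 over 21, with edgeR calling 0 in each. Shmt2, of mitochondrial one-carbon metabolism, had -0.33 (edgeR adjusted p = 0.19), and Cacybp, a chaperone partner, -0.23 (0.158).

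Of 36 DNA replication genes 33 were below 0, with a median of -0.11, but edgeR and DESeq2 called 0. Only 1 was lower without overlap (5.81% of all genes). With the double-positive marker level as a covariate their median was 0.00, with 19 above and 17 below 0. The 28 mitosis genes had a median of -0.03, with 11 above 0, and edgeR and DESeq2 called 0. Their mean level was uneven within the deleted group, at 7.26 and 7.03 in DeltaTamCre 1 and 2 and 6.52 and 6.44 in DeltaTamCre 3 and 4 on the log2(CPM + 1) scale, against 6.72 to 7.02 in the controls. Without TamCre 2 and DeltaTamCre 1 all 28 lay below 0, with a median of -0.25. The median turned above 0 without DeltaTamCre 4 (0.077, 20 above 0), without DeltaTamCre 3 (0.064, 19 above 0) and without TamCre 3 (0.014, 16 above 0), and was -0.23 without DeltaTamCre 1. Cdc20, an activator of the anaphase ligase, had -0.24 (edgeR adjusted p = 0.501), and Gins2, of the replicative helicase, -0.19 (0.254).

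**Figure D4:**
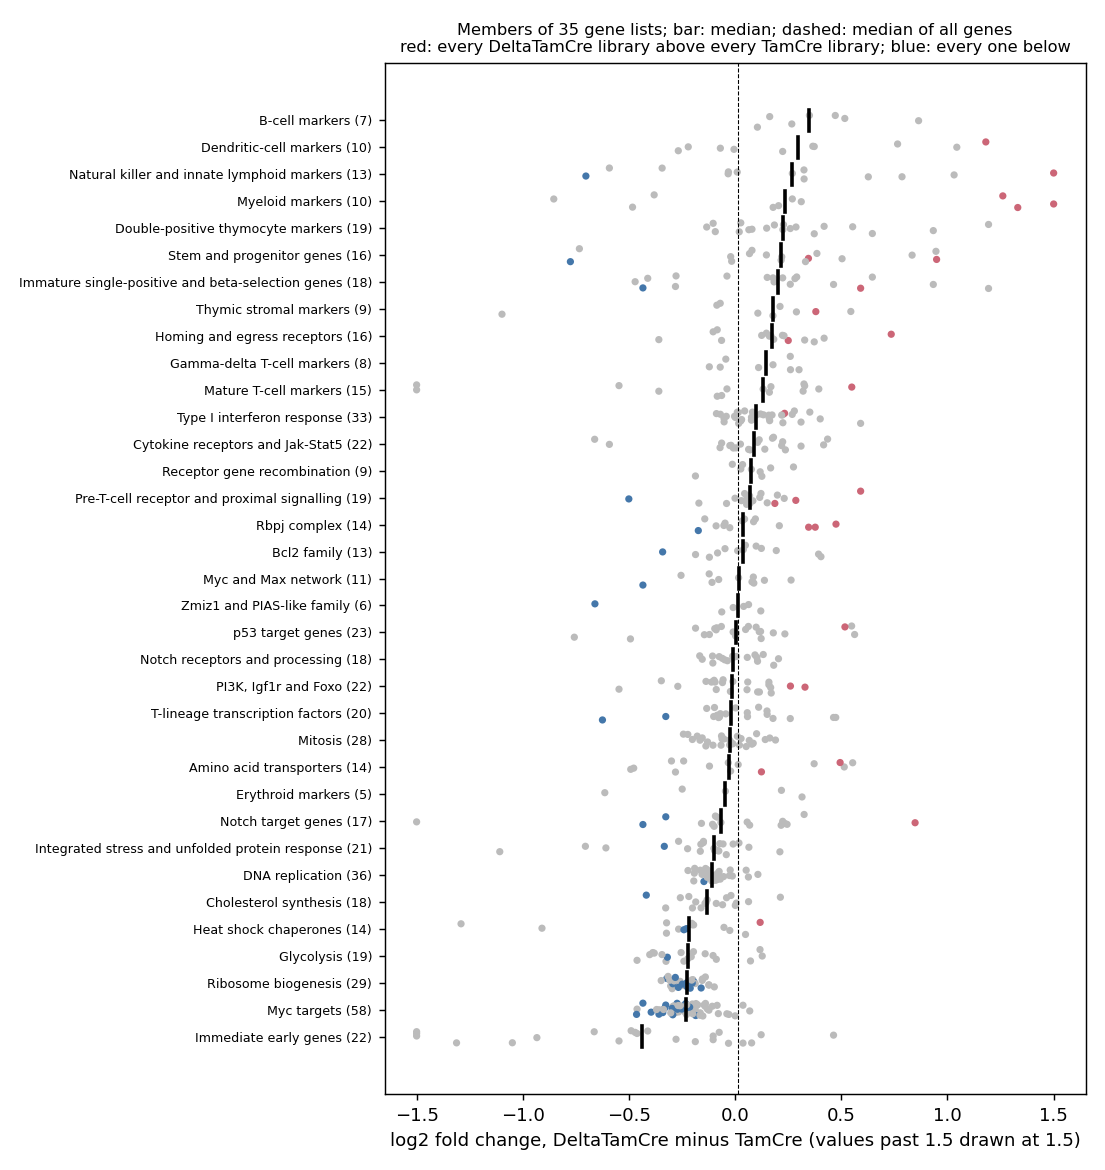
Log2 fold changes (DeltaTamCre minus TamCre) of the tested members of 35 gene lists (points; the number tested is in brackets), with the list median as a black bar and the median of all genes dashed. Members of the Myc target and ribosome biogenesis lists lie left of 0, with medians of -0.23, and 19 and 11 of them are lower without overlap (blue).

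Genes of the T-cell programme moved in both directions. Tcf7, the high-mobility-group factor of early T-cell development, stood at 2347, 1874, 2025 and 2017 CPM in TamCre and at 1608, 1686, 1629 and 1665 in DeltaTamCre. The deleted libraries were all below the controls and close to one another (-0.33, edgeR adjusted p = 0.139, DESeq2 0.01). Lef1, its close relative, stood at 439.5, 271, 276 and 283 CPM against 178, 215, 204 and 225 (-0.62, SE 0.154, edgeR adjusted p = 0.128, DESeq2 0.00522). TamCre 1 was far above the other controls, and these were still above every deleted library. Of 20 T-lineage transcription factors, Tcf7 and Lef1 were the only ones called by DESeq2 (1.69% of all genes lower), edgeR called 0, and the median was -0.02.

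Among 19 genes of the pre-T-cell receptor and its proximal signalling, 15 were above 0, with a median of 0.07. EdgeR called 0, and DESeq2 called Cd5 and Lcp2 higher (1.9% of all genes) and Cd3d lower (1.69% of all genes). Cd5, an inhibitory co-receptor whose level follows receptor signal strength, stood at 28, 20.02, 20.2 and 21.9 CPM in TamCre and at 37.8, 33, 30.01 and 34.9 in DeltaTamCre (0.59, SE 0.12, edgeR adjusted p = 0.114, DESeq2 0.0021). Cd3d, a signalling chain, stood at 324, 429, 384 and 362 CPM against 303, 286, 235 and 235 (-0.50, edgeR adjusted p = 0.121, DESeq2 0.00325). Neither gene's groups overlapped, although TamCre 1 was the nearest control to the deleted libraries in both. Lcp2, the adaptor SLP-76, had 0.29 (edgeR adjusted p = 0.145, DESeq2 0.0297).

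The 14 genes of the Rbpj complex had a median of 0.04, with 0 called by edgeR. DESeq2 called the Mastermind-like co-activators Maml2 and Maml3 higher (1.9% of all genes). Maml2 stood at 16.1, 16, 15.3 and 13.5 CPM in TamCre and at 22, 20.9, 22.3 and 19.4 in DeltaTamCre, without overlap (0.47, SE 0.0961, edgeR adjusted p = 0.112, DESeq2 0.00132). Maml3 stood at 40.3, 35, 34.5 and 38.4 CPM against 41, 51.6, 52.7 and 47.1 (0.38, edgeR adjusted p = 0.128, DESeq2 0.0234). For Maml3 the gap between the groups was narrow, since DeltaTamCre 1 was just above TamCre 1. Of the 6 genes of the Zmiz1 and PIAS-like family, edgeR and DESeq2 called Zmiz1 alone, and the other 5 members had log2 fold changes between -0.06 and 0.12.

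Receptor gene recombination (9 genes, median 0.08), PI3K, Igf1r and Foxo (22, -0.02), cytokine receptor and Jak-Stat5 (22, 0.09) and Bcl2 family genes (13, 0.04) lay near 0, and edgeR called 0 in each. Pik3cd, a catalytic subunit of phosphoinositide 3-kinase, stood at 497, 529, 467 and 505 CPM in TamCre and at 593, 579.6, 646 and 693 in DeltaTamCre, without overlap (0.33, edgeR adjusted p = 0.128, DESeq2 0.01). Bid, a pro-death Bcl2 relative, had -0.34 (edgeR adjusted p = 0.144, DESeq2 0.0402). Slc43a2, an amino acid transporter, had 0.49 (0.112, DESeq2 0.00275), and Trp53inp1, a p53 target, 0.52 (0.105, DESeq2 0.000657), both without overlap. Of 14 amino acid transporters 6 lay above 0 and 8 below, with a median of -0.03. In that list DESeq2 called 1 higher (1.9% of all genes) and 1 lower (1.69% of all genes). Of 23 p53 targets Trp53inp1 was the only one called by DESeq2 (1.9% of all genes higher), and their median was 0.01. The 33 type I interferon genes had a median of 0.10 with 27 above 0 and 0 called by either tool, and over the single libraries left out their median ran from -0.038, without DeltaTamCre 3 (15 above 0), to 0.18.

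Immediate early genes had the lowest list median, -0.44 over 22 genes, and it rested on TamCre 1. Without that library the median was 0.17, with 20 of 22 above 0. EdgeR called 0 either way. Klf4 is the plainest example, at 13.8 CPM in TamCre 1 and at most 0.534 in the other controls.

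Markers of other cells were checked as whole lists. The 19 double-positive thymocyte markers summed to 2116 ± 125 CPM in TamCre and 2269 ± 48.8 in DeltaTamCre, with ranges of 1959 to 2248 and 2207 to 2319.5 (exact two-sided permutation test, adjusted p = 0.114). The log2 fold changes had a median of 0.22, with 16 of 19 above 0 and 0 called by edgeR or DESeq2. With the mean level of these markers as a covariate edgeR called 9 genes, 6 of them among the 11, and Zmiz1 (adjusted p = 0.117), Ggt5, Myl4, Pgam2 and Qsox2 did not pass. Without TamCre 2 and DeltaTamCre 1 it called 7, of which 5 were among the 11. These were Evl, Il31ra, Jakmip1, Cd53 and Gzma. The part of later thymocytes in the other differences was not tested.

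Mature T-cell markers summed to 1211 ± 37.7 CPM in TamCre and 1445 ± 151 in DeltaTamCre (adjusted p = 0.114). Stem and progenitor genes summed to 175 ± 14.3 and 209 ± 20.1 CPM, with Kit the largest member (exact two-sided permutation test, p = 0.0286, adjusted p = 0.0952). B-cell markers summed to 49.3 ± 2.03 and 56.6 ± 5.72 CPM (exact two-sided permutation test, p = 0.0286, adjusted p = 0.0952). They were mostly Cd79b, while Pax5 reached at most 0.103 CPM. Myeloid markers summed to 14.8 ± 3.15 and 18.7 ± 3.18 CPM (0.163), and Itgam, an integrin of myeloid and killer cells, stood at 0.474, 1.06, 0.606 and 0.901 CPM in TamCre and at 2, 1.97, 1.9 and 1.78 in DeltaTamCre (1.33, edgeR adjusted p = 0.121, DESeq2 0.00225). Thymic stromal, gamma-delta T-cell, dendritic-cell and erythroid sums had adjusted p from 0.163 to 0.543, all by the same exact permutation test over 10 lists. For stem and progenitor genes and for B-cell markers, every DeltaTamCre sum lay above every TamCre sum. With 4 against 4 libraries a single list cannot pass this adjustment even without overlap. The adjusted values therefore do not show that the groups held the same cells.

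The same gene was deleted in DN3 cells of other mice with MxCre and pI-pC, sorted at 8 weeks and made into libraries by another kit (3 DeltaMxCre and 3 MxCre libraries), so the values of the 2 experiments are set side by side and the difference between them was not tested. There edgeR called 183 of 12675 genes (1.44%). Of the 11 genes called after tamoxifen, 7 were called in that experiment too and in the same direction, and DESeq2 called 9 of them (3.82% of all genes there). Zmiz1 had -1.41 there, Evl 2.22, Il31ra 2.17, Ggt5 1.93, Cd53 1.28, Jakmip1 0.93 and Qsox2 -0.93 (edgeR adjusted p from 0.000144 to 0.0469). Each of these 7 had a larger log2 fold change there than 43 to 44 hours after tamoxifen. Itgb3 had nearly the same in both, 0.69 and 0.67, but edgeR did not call it after pI-pC (adjusted p = 0.105). Gzma had -0.75 (0.205), and Myl4 (0.20) and Pgam2 (-0.02) were not called after pI-pC and stood at 3.69 and 6.28 CPM in MxCre.

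Among other genes named here, some had similar log2 fold changes in both experiments and others did not. Dtx1 had 0.23 after tamoxifen and 1.13 after pI-pC (SE 0.142, edgeR adjusted p = 0.00115), and Trib2 0.24 and 1.47 (SE 0.271, 0.0195). Myc had -0.43 and -0.84, neither called by edgeR (0.128 and 0.211), and both called by DESeq2 (0.00997 and 0.0235). Acsf2, an acyl-CoA synthetase, Ston2, an endocytic adaptor, and Serpinb6b, a protease inhibitor, did not pass edgeR after tamoxifen (0.54, 0.72 and 0.61, adjusted p = 0.0565, 0.0867 and 0.0867) and passed after pI-pC (1.37, 0.81 and 1.18, adjusted p = 0.00447, 0.0195 and 0.00977). Cd6, a co-receptor of T cells, had 0.36 and 0.95 and did not pass edgeR in either (0.0867 and 0.07), nor did Afap1, an actin filament adaptor, with 0.48 and 0.37 (0.0867 and 0.236).

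Genes next in line for a fall after tamoxifen, none of which passed edgeR, were Ydjc (-0.54, adjusted p = 0.07), Nme4, a mitochondrial nucleoside diphosphate kinase (-0.49, 0.0867), Guk1, guanylate kinase (-0.42, 0.0891), Nefh, a neurofilament (-0.54, 0.0891), Polr2d, an RNA polymerase II subunit (-0.31, 0.0891), Pparg, a nuclear receptor (-1.01, 0.0891), Zfp771 (-0.54, 0.0891) and Egfl7 (-0.62, 0.0891). In all 8 every deleted library was below every control, and DESeq2 called all 8. Polr2d was the tightest, at 69.2, 66, 66.7 and 66.3 CPM in TamCre and 53.9, 55.1, 54 and 52.7 in DeltaTamCre.

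**Figure D5:**
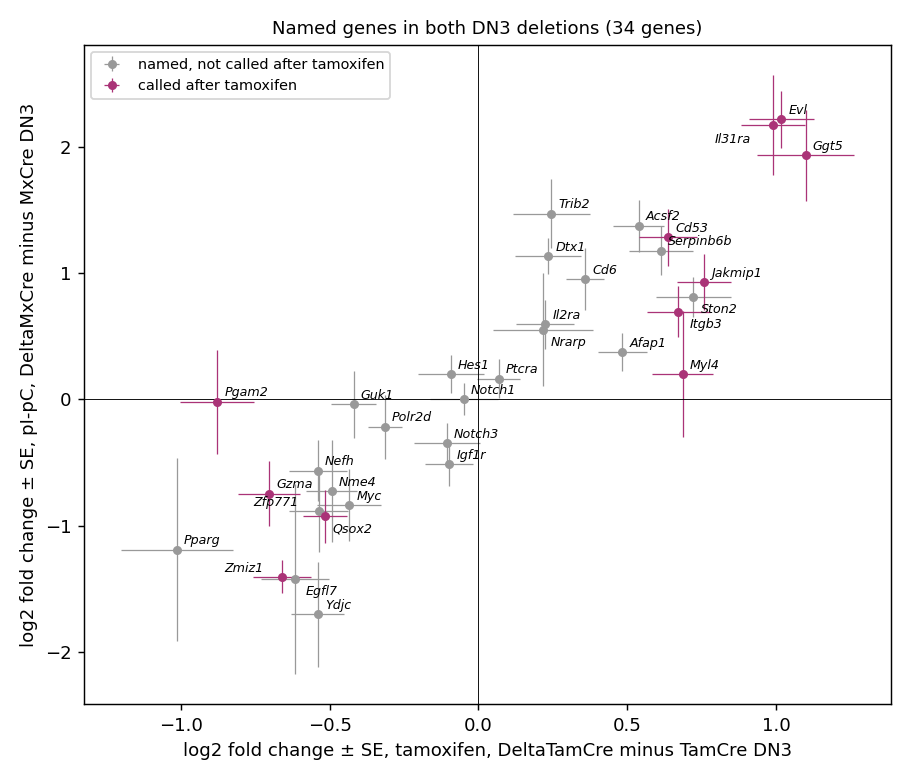
Log2 fold change after tamoxifen (horizontal) against that after pI-pC (vertical) for 34 named genes in DN3 cells, with SE bars, and the 11 genes called after tamoxifen in purple. Evl, Il31ra and Ggt5 lie near 1 after tamoxifen and near 2 after pI-pC, and Pgam2 and Myl4 lie near 0 after pI-pC. The genes were chosen on the horizontal axis.

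In early T-cell precursors (ETP) after the same tamoxifen schedule, 4 DeltaTamCre and 4 TamCre libraries made by yet another kit from 1 ng of RNA, edgeR called 0 of 12924 genes, with 640 (4.95%) at an unadjusted p under 0.05, and DESeq2 called 8 (0.0622%). Zmiz1 had -1.13 there (SE 0.23, edgeR adjusted p = 0.907, DESeq2 0.00996). Ggt5 (0.82, SE 0.25), Itgb3 (0.49, SE 0.137), Evl (0.92, SE 0.386), Cd53 (0.53, SE 0.236) and Jakmip1 (0.43, SE 0.247) were above 0 in ETP, while Il31ra had -0.14 and Myl4 -0.16. Gzma had -1.37 (SE 0.642), Pgam2 -0.49 (SE 0.531) and Qsox2 -0.35 (SE 0.252). Myc had -0.32 (SE 0.139). None of these passed edgeR in ETP, where the adjusted p was at least 0.907.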

How the data were processed

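RNA was sequenced from sorted DN3 thymocytes of 4 TamCre and 4 DeltaTamCre mice. The deposited table holds the authors' estimated counts for 23107 gene symbols, since 1.19% of its values differ by over 0.01 from a whole number, and rounded values were used in all tests. The submitters' processing notes name the build mm10, TopHat2 2.0.9, Cuffdiff 2.1.1, Cufflinks, Bowtie2 2.1.0.0 and FastQC 0.10.0, with no roles. The annotation and counting settings are not given in the sources used here, so reads of near-identical or overlapping genes may have been split. Ribosomal-protein and mitochondrial genes were not analysed here, and 25 names in date form matched no list. The labels do not tie a library to a mouse. Libraries of 1 group differed by more than counting noise, and each was used as 1 replicate.

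The main test was edgeR 4.0.16 in R 4.3.3, with filterByExpr (minimum count of 10, total of 15), TMM and the robust quasi-likelihood F test of group alone (prior count 0.125). A call is a Benjamini-Hochberg adjusted p under 0.05, the SE is the log2 fold change over the square root of F, and levels are CPM. DESeq2 1.42.0 (Wald test, default filtering) was the second tool. The pI-pC DN3 and tamoxifen ETP libraries were fitted within their own tables. Marker sums and composition were compared by exact permutation tests. The scripts were tested on simulated data. Other scalings and filters, a non-robust fit, covariates, a replicate block and leaving out each library were tried.

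The members, the 35 gene lists and the tests were chosen with earlier results of these data known. Named genes are 11 of the Notch and Zmiz1 literature, the called genes of at least 1 CPM without overlap, filled to 12 per direction by lowest p, and of each list the called members or the one of lowest p. The 13 other members of 7 lists that DESeq2 called, the marker genes and Cdk4 were named after their values were seen. Some list members stay in the counts, medians and sums but are not reported here by name. Positions come from GENCODE M21 (GRCm38), promoters from RefSeq (GRCm38.p6).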

Additional observations from a re-analysis of the deposited data

Results flagged for a closer look

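In 13 of 182 groups of 4 values, 1 sample lay far from the other 3, with a gap above Dixon's 95% critical value for 4 samples, and chance flags about 1 in 20 such groups. In TamCre the highest sample was far from the rest for Klf4 (13.8 CPM, the next 0.534), Lef1 (439.5, the next 283), Id3 (41.9, the next 32.2), Trib2 (36.7, the next 27.4), Guk1 (51.1, the next 45), Dctpp1 (149.6, the next 122) and Pparg (4.78, the next 3.84). In all 7 genes that sample was TamCre 1, the library that the first principal component set apart. The lowest TamCre sample was far from the rest for Gins2 (55.3 CPM, the next 61.9), for Npm1 (2079.8, the next 2272), for the summed myeloid markers (10.1 CPM, the next 16.3) and for the summed natural killer and innate lymphoid markers (301.1 CPM, the next 317). In DeltaTamCre the lowest sample was far from the rest for Zfp771 (11.9 CPM, the next 14) and Lfng (45.1 CPM, the next 51.8).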

How the results depend on the processing

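DESeq2 called 222 genes higher and 197 lower, against 7 and 4 by edgeR, and a replicate block called 0 in each direction. The same-numbered libraries correlated at -0.26, -0.35, -0.02 and -0.02 in their deviations from the group means, so they share only a number. Under the block Zmiz1 had -0.67 (edgeR adjusted p = 0.473). Leaving out 1 library in turn gave 0 to 6 genes higher, 0 to 2 lower, and Zmiz1 from -0.76 to -0.61, with a call only without DeltaTamCre 2. With the double-positive marker covariate edgeR called 2 genes lower and Zmiz1 had -0.61 (adjusted p = 0.117). Without TamCre 2 and DeltaTamCre 1, chosen after seeing the data, it called 1 lower and Zmiz1 had -0.65 (0.0937). The cause was not tested. The sign of Notch1 turned with the covariate (0.011), without TamCre 2 and DeltaTamCre 1 (0.0063) and without TamCre 1 or DeltaTamCre 1. Over the single libraries left out, Notch1 ran from -0.10 to 0.052, Hes1 from -0.17 to 0.0078 and Klf4 from -3.48 to 0.089, each highest and above 0 without TamCre 1. The dendritic-cell sum difference ran from -184 to 14.4 CPM and turned without DeltaTamCre 1, and the gamma-delta one ran from -6.48 to 112 CPM and turned without DeltaTamCre 4. DESeq2 size factors, upper-quartile scaling and a mean of at least 10 counts kept all 11 calls. The fit without robust estimation kept 9 and lost Cd53 (adjusted p = 0.0647) and Itgb3 (0.0635). No filter gave 13 calls, and the mitosis covariate, chosen after seeing the data, 13, of which 10 were among the 11.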

Other observations

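Of 16 homing and egress receptors 12 lay above 0, with a median of 0.18, and edgeR and DESeq2 called 0. Ms4a4b, a membrane-spanning protein that mature T cells carry, stood at 20.4, 17.6, 23 and 22.5 CPM in TamCre and at 27.8, 25.2, 39.6 and 29.5 in DeltaTamCre, without overlap (log2 fold change 0.55, edgeR adjusted p = 0.135, DESeq2 0.0172). Cdh1, E-cadherin, stood at 91.2, 109.6, 112 and 108 CPM against 117, 165, 145 and 121, also without overlap (0.38, edgeR adjusted p = 0.171, DESeq2 0.0532). Kit, the stem-cell factor receptor, had 0.33 (edgeR adjusted p = 0.173), and Il6st, the shared chain of interleukin 6 receptors, 0.24 (0.184), both with overlap.

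H2-Aa, a class II histocompatibility chain, stood at 0.34 to 0.806 CPM in TamCre and at 1.01 to 1.58 in DeltaTamCre (1.18, edgeR adjusted p = 0.177, DESeq2 0.0398). H2-Ab1, a more abundant class II chain, stood at 8.91 to 12.3 CPM in TamCre and at 7.6 to 9.4 in DeltaTamCre. H2-Eb1, another, stood at 0.546 to 0.972 and 0.675 to 1.29 CPM, and both overlapped. Of 10 dendritic-cell markers tested, 6 lay above 0 and 4 below. Plxnd1, of double-positive cells, had 0.42 (edgeR adjusted p = 0.365), with DeltaTamCre 3 below every control. Id3 had 0.18 (0.471), Cd79b 0.16 (0.438), Gata1 0.22 (0.582), Parp14, of the interferon response, 0.28 (0.229), and Lig4, of DNA end joining, 0.17 (0.358).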
